A study of Mus musculus with 28 samples.

Results

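Hybrid dendritic cells that lack Nfil3 were compared directly with hybrid dendritic cells that carry an altered Zeb2 enhancer. Both were sorted from the spleen of C57BL/6 mice homozygous for an altered Irf8 enhancer allele at +32 kb, named +32H. The first group is Irf8 +32H/H Nfil3-/- (called Nfil3-/- here) and the second is Irf8 +32H/H Zeb2 -165D123 (called Zeb2 -165D123), each with 2 libraries labelled as biological duplicates. These 4 libraries were taken by genotype and cell type from 28 libraries in 14 groups and 2 experiments, all of bulk RNA from sorted splenic dendritic cells. Hybrid DC is the submitters' name for a population beside conventional dendritic cells of type 1 (cDC1) and type 2 (cDC2), and no label states the gates of the sort. Because the Irf8 alteration is in both groups, the comparison shows how the 2 added alterations differ on that background, and neither group is a wild type. H/H hybrid cells without an added alteration (2 libraries) serve as the parent genotype, and Nfil3-/- and H/H cDC1 (2 libraries each) as the same Nfil3 contrast in another population. Animal ages and sexes, and whether equal replicate numbers mark cells from the same mouse, are not stated in the labels.

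NFIL3 is a basic leucine zipper repressor whose target sites, called D-boxes, are shared with the activators DBP, TEF and HLF, and cDC1 are known to depend on it. ZEB2 is a zinc finger repressor that binds E-boxes, DNA sites it shares with E proteins such as TCF4 (E2-2), and it is known to support cDC2 and plasmacytoid dendritic cells (pDC) and to oppose the cDC1 fate. NFIL3 is known to repress Zeb2 in dendritic cell progenitors, and the enhancer at -165 kb of Zeb2 is known to hold sites for NFIL3 and C/EBP factors, so the 2 alterations lie on the same regulatory axis.

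The 4 libraries held 17.9 to 22.7 M estimated counts, and levels are given as CPM, counts per M of the library after scaling. Replicate 1 of each genotype had next to no Xist, the RNA of the inactive X chromosome (0.112 and 0.46 CPM), and replicate 2 of each held it (193 and 302 CPM). A library with and a library without Xist therefore stood on each side of the comparison, while both H/H hybrid libraries had at most 0.0564 CPM. A difference between bulk samples cannot tell fewer cells of a type from less RNA per cell.

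Nfil3 checked the first genotype. Its level was 5.62 and 5.70 CPM in the Nfil3-/- libraries, 52.1 and 45.1 in the Zeb2 -165D123 libraries, and 41.5 and 55.3 in H/H hybrid cells. The Zeb2 -165D123 libraries lay within the range of the parent, and the Nfil3-/- libraries lay far below both. The log2 fold change (Nfil3-/- over Zeb2 -165D123 throughout, so negative values are higher in Zeb2 -165D123) was -3.10 (SE 0.181), with an adjusted p of 3.27e-08 in edgeR's quasi-likelihood test. Which part of Nfil3 is deleted is not given in the labels, so the remaining reads, 225 counts over both libraries, were not traced to exons. The gene lies at chr13:52967209-52981073 on the minus strand of GRCm38.

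Zeb2, at chr2:44983632-45117395 on the minus strand, was below the parent in all libraries of both alterations, and the test did not separate the 2 genotypes. Its level was 19.5 and 27.8 CPM in the Nfil3-/- libraries, 10.3 and 19.6 in the Zeb2 -165D123 libraries, and 38.6 and 46.9 in H/H hybrid cells. The altered groups overlapped (19.5 against 19.6 CPM), and all 4 of their libraries lay below both parent libraries. The log2 fold change between them was 0.66 (SE 0.259, 95% interval 0.10 to 1.22; adjusted p = 0.122, edgeR). Against the parent it was -1.51 in Zeb2 -165D123 (adjusted p = 0.00555) and -0.85 in Nfil3-/- (adjusted p = 0.0805), values that share the H/H libraries. The direct difference passed the threshold without Zeb2 -165D123 replicate 2 (1.25, adjusted p = 0.0112), with a term for the libraries that hold Xist (0.69, 0.0377) and without the filter on low counts (0.71, 0.00231).

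**Figure D1:**
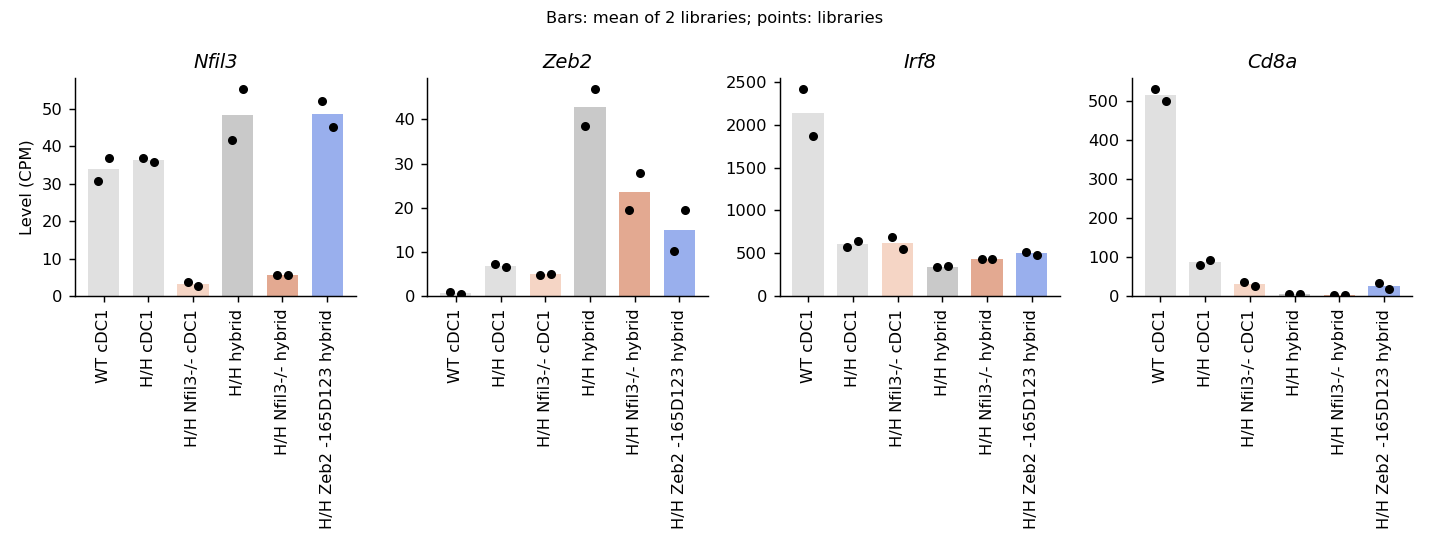
Level (CPM, linear axis from 0) of Nfil3, Zeb2, Irf8 and Cd8a in the 12 libraries of the second experiment, by group. Bars are means of 2 libraries and points are libraries. Nfil3 lies at 5.62 and 5.70 CPM in Nfil3-/- hybrid cells, and Zeb2 in both altered hybrid groups lies below the 38.6 and 46.9 CPM of H/H hybrid cells.

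Across 14504 genes tested, 1584 (10.9%) passed an adjusted p of 0.05, 757 higher in Nfil3-/- (5.22%) and 827 higher in Zeb2 -165D123 (5.7%). Of these, 237 and 443 differed at least 2-fold, so larger differences were more often on the Zeb2 -165D123 side. The median log2 fold change of all genes tested was -0.033, and 90% of genes lay between -1.29 and 0.79. The libraries of the 2 groups did not overlap for any called gene, as was the case for 58.9% of all genes tested. Every library mattered to the count: it was 675 without Nfil3-/- replicate 1, 596 without Nfil3-/- replicate 2, 963 without Zeb2 -165D123 replicate 1 and 775 without Zeb2 -165D123 replicate 2. By comparison, 541 genes (3.73%) separated Nfil3-/- and 584 (4.03%) separated Zeb2 -165D123 from the parent in the same fit, and these comparisons share the H/H libraries. No parent library holds Xist, and with a term for the libraries that hold it these counts were 385 and 471.

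**Figure D2:**
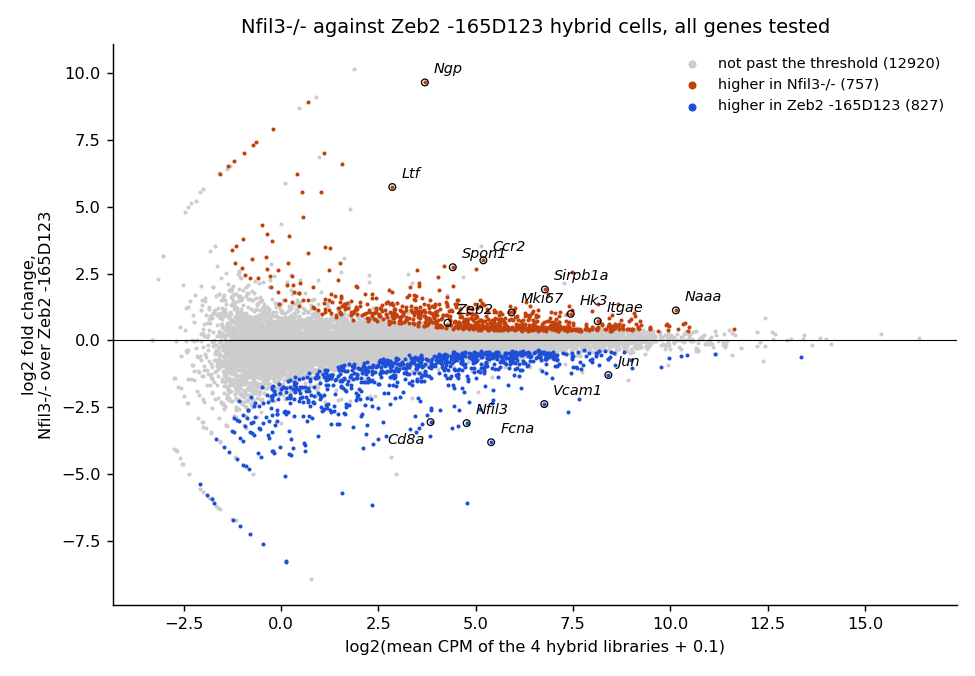
Log2 fold change of Nfil3-/- over Zeb2 -165D123 hybrid cells (vertical axis) against the log2 of mean CPM plus 0.1 (horizontal axis) for 14504 genes. Coloured points passed the adjusted p of 0.05: 757 higher in Nfil3-/- and 827 higher in Zeb2 -165D123. Zeb2 (0.66) lies among the genes that did not pass, and Nfil3 (-3.10) among the strongly lower ones.

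Irf8, Batf3, Id2, Tcf4, Zbtb46 and Irf4 did not pass the threshold. Irf8, which carries the enhancer alteration shared by both groups and directs cDC1 development, was at 438 and 435 CPM in Nfil3-/- and at 518 and 478 in Zeb2 -165D123, with a log2 fold change of -0.19 that did not pass (adjusted p = 0.404). H/H hybrid cells had 336 and 345 CPM, so all 4 libraries lay above both parent libraries. Batf3 (-0.05), the partner of IRF8 at cDC1 enhancers, Id2 (0.04), an inhibitor of E proteins, Tcf4 (0.09), the E protein of pDC, and Zbtb46 (-0.09), a factor of all conventional dendritic cells, did not pass. Irf4, the cDC2 counterpart of Irf8, was at 29.6 and 22.1 CPM in Nfil3-/- and at 55.8 and 39.0 in Zeb2 -165D123. The libraries did not overlap, and the log2 fold change of -0.88 missed the threshold (adjusted p = 0.068), while it passed in DESeq2 (adjusted p = 0.00908), without the filter on low counts (3.6e-05), with only the 2 groups in the fit (0.0302) and with the term for Xist (0.0202).

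Among 29 dendritic cell transcription factors, 2 were called higher in Nfil3-/- and 4 higher in Zeb2 -165D123, Nfil3 itself included, against 5.22% and 5.7% of all genes, with a median log2 fold change of -0.11. Relb, an NF-kB subunit needed for a part of cDC2, stood at 45 and 36.9 CPM in Nfil3-/- and at 86.3 and 87.1 in Zeb2 -165D123 (-1.08, adjusted p = 0.000324). Batf2, a relative of Batf3, stood at 12.1 and 12.0 against 4.37 and 5.4 CPM (1.30, adjusted p = 0.00853). H/H hybrid cells had 5.54 and 3.95 CPM of Batf2, close to the Zeb2 -165D123 libraries. The call of Batf2 was lost without Zeb2 -165D123 replicate 1 (adjusted p = 0.0738). Spi1 (PU.1) and Prdm1 (Blimp-1) were higher in Zeb2 -165D123 (-0.48 and -0.64), and Tbx21 (T-bet) in Nfil3-/- (2.06), but these 3 calls were lost whichever library was left out, so that 2 of the 4 calls toward Zeb2 -165D123, Nfil3 and Relb, stood in each such fit. Id3, an inhibitor of E proteins like Id2, was at 14.3 and 16.9 CPM against 5.17 and 2.77 (2.00, adjusted p = 0.000426). It was the sole call among 8 Zeb factors, E proteins and Id inhibitors, against 5.22% of all genes called higher in Nfil3-/-.

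Among the genes with the largest differences toward Nfil3-/-, 4 kept the level of the parent and were lower than it in Zeb2 -165D123 (Ccr2, Sirpb1c, Sirpb1a and Pltp). Ccr2, the receptor for the monocyte chemokine CCL2, was at 61.6 and 68.4 CPM in Nfil3-/- and at 7.82 and 8.39 in Zeb2 -165D123. H/H hybrid cells had 64.3 and 60.6 CPM, within reach of Nfil3-/- and far above Zeb2 -165D123. The log2 fold change was 3.0 (SE 0.159, adjusted p = 9.37e-09). Sirpb1c and Sirpb1a, signal regulatory proteins that pair with an activating adaptor, showed the same order of groups, with log2 fold changes of 2.79 and 1.91. Their reads may be shared among near-identical copies, so the share of each copy is uncertain. Pltp, a phospholipid transfer protein, was at 18.2 and 19.8 against 3.62 and 4.95 CPM (2.14), with 18.6 and 14.6 in the parent.

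Other genes were higher in Nfil3-/- than in either of the other hybrid groups. Spon1, a secreted matrix protein, was at 31.5 and 42.2 CPM against 4.66 and 6.31 in Zeb2 -165D123 and 9.50 and 7.62 in the parent. Its log2 fold change was 2.74 (adjusted p = 0.000324), and it was 2.11 against the parent (adjusted p = 0.0035). Gpr33, a chemoattractant receptor relative of cDC1, was at 11.7 and 9.62 against 2.59 and 3.13 CPM (1.89, adjusted p = 0.00129), with 1.79 and 0.846 in the parent. Gbp2b, an interferon-induced GTPase, was at 23.8 and 14.9 against 1.38 and 4.67 CPM (2.64, adjusted p = 0.00279), a call lost with only the 2 groups in the fit (adjusted p = 0.115). For a further set the parent lay between the genotypes. Kdr, a receptor for vascular endothelial growth factor, Bend4, a BEN domain protein, and Ccl7, a monocyte chemokine, differed by 2.05, 2.39 and 2.04 on the log2 scale. Ms4a6d, a membrane protein of macrophages, was at 7.53 and 14.4 against 2.7 and 3.49 CPM (1.82, adjusted p = 0.00569), a call lost without Nfil3-/- replicate 2 (adjusted p = 0.0875) or Zeb2 -165D123 replicate 1 (0.0576). Wfdc17 was at 176 and 427 against 55.9 and 46.3 CPM (2.56, adjusted p = 0.0306), with Nfil3-/- replicate 2 well above replicate 1. The call of Wfdc17 was lost without Nfil3-/- replicate 2 (adjusted p = 0.0709), Zeb2 -165D123 replicate 1 (0.112) or Zeb2 -165D123 replicate 2 (0.151).

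On the Zeb2 -165D123 side, some genes were below the parent in Nfil3-/- cells, and others were above it in Zeb2 -165D123 cells. To the first kind belonged Cacna1e, a voltage-gated calcium channel, at 3.54 and 4.33 CPM in Nfil3-/-, 34.9 and 41.4 in Zeb2 -165D123 and 18.8 and 24.9 in the parent (-3.27, adjusted p = 9e-08). P3h2, a collagen-modifying enzyme, stood at 5.17 and 3.97, at 43.5 and 40.5, and at 23.4 and 21.8 CPM in the same order (-3.21, adjusted p = 8.45e-09). For both genes the parent lay between the genotypes and did not overlap with either. The log2 difference from the parent was -2.46 and -2.31 in Nfil3-/- and 0.81 and 0.89 in Zeb2 -165D123.

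To the second kind belonged C6, a component of the complement attack complex, at 0.562 and 1.37 CPM in Nfil3-/-, 10.3 and 13.3 in Zeb2 -165D123 and 1.41 and 0.959 in the parent (-3.58, adjusted p = 2.91e-05). Igf1, an insulin-like growth factor, stood at 1.85 and 3.37, at 20.1 and 17.5, and at 3.64 and 2.09 CPM in the same order (-2.83, adjusted p = 7.02e-05). Nfil3-/- and the parent lay close together for both, and Zeb2 -165D123 stood apart. Ccr3, the eotaxin receptor, Slc45a3, a solute carrier, Crip2, a LIM domain protein, and Ptgs1 (cyclooxygenase 1) followed the same order, with log2 fold changes from -2.78 to -3.44. Gfra2, a receptor for neurturin, and Sspo, a secreted protein, differed by -3.69 and -3.56. C1qc and C1qa, macrophage genes described below, showed the order of C6. H/H cDC1 held little of C6 (mean 0.0479 CPM), Ccr3 (0.416), C1qc (0.288) or C1qa (0.425). The part of macrophages among the sorted cells in these values was not tested. Cldn1, a tight junction protein (-3.28), differed from the parent in both genotypes. It stood at 1.57 and 2.64 CPM in Nfil3-/-, 20.2 and 21.5 in Zeb2 -165D123 and 7.55 and 5.08 in the parent. Fcna, a ficolin of macrophages, reached 82.2 and 75.0 CPM in Zeb2 -165D123 and only 1.57 and 9.30 in Nfil3-/- (-3.81, adjusted p = 0.0142), and its call was lost without Zeb2 -165D123 replicate 2 (adjusted p = 0.0551) or with only the 2 groups in the fit (0.167), as was that of Ccr3 with only the 2 groups (0.0659).

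**Figure D3:**
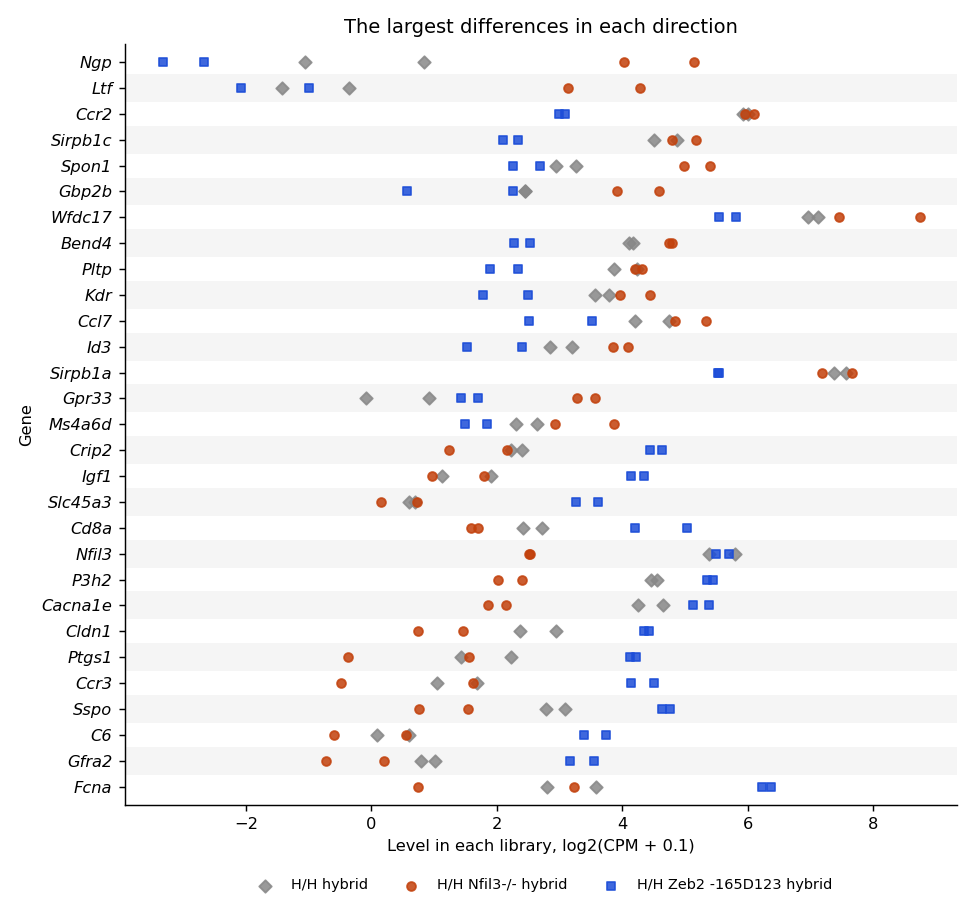
Level in each library as log2 of CPM plus 0.1 (horizontal axis) for the largest differences in each direction, up to 15, that the naming rule gives, for Nfil3-/- (circles), Zeb2 -165D123 (squares) and H/H hybrid cells (diamonds). Circles and squares do not overlap for any gene shown. The parent lies with Nfil3-/- for Ccr2 (64.3 and 60.6 CPM) and with Zeb2 -165D123 for Nfil3 (41.5 and 55.3 CPM).

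Markers of cDC1 split evenly: of 28 tested, 6 were called higher in Nfil3-/- and 6 higher in Zeb2 -165D123, against 5.22% and 5.7% of all genes, with a median log2 fold change of 0.04. Toward Zeb2 -165D123 stood Cd8a, the CD8 alpha chain of splenic cDC1, at 3.15 and 2.92 CPM in Nfil3-/-, 32.4 and 18.4 in Zeb2 -165D123 and 5.21 and 6.49 in the parent (-3.06, adjusted p = 0.000106). Gcsam, a signalling adaptor of lymphoid cells, was at 28.2 and 26.0 against 94.0 and 78.1 CPM (-1.67, adjusted p = 1.09e-06), with 21.1 and 18.6 in the parent. Cd24a, a glycoprotein used to recognise cDC1, was at 25.9 and 20.2 against 59.4 and 41.7 CPM (-1.13, adjusted p = 0.00126). For these 3 genes every Zeb2 -165D123 library was above all parent libraries. Clnk and Ly75 (DEC-205) were also higher there (-0.93 and -0.62), and so was Cd207 (langerin; -3.51), whose call was lost when any library was left out.

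Toward Nfil3-/- stood Naaa, a lysosomal lipid amidase of cDC1, at 1468 and 1630 against 799 and 622 CPM (1.12, adjusted p = 0.000106), with 502 and 509 in the parent. Itgae (CD103), an integrin chain of cDC1, was at 289 and 410 against 257 and 167 CPM (0.72, adjusted p = 0.0306), and both genotypes stood far above the 52.1 and 50.6 CPM of the parent. The call of Itgae was lost without Nfil3-/- replicate 2 (adjusted p = 0.21) or Zeb2 -165D123 replicate 2 (0.164), or with only the 2 groups in the fit (0.182). Xcr1, the chemokine receptor that marks cDC1, was at 567 and 604 against 476 and 404 CPM (0.41, adjusted p = 0.0321), and its call was lost without Nfil3-/- replicate 1 (adjusted p = 0.104), Nfil3-/- replicate 2 (0.162) or Zeb2 -165D123 replicate 2 (0.17). Ppt1, Ifi205 and Gpr33 made up the rest. The summed level of the list was 12600 and 13000 CPM in Nfil3-/-, 11000 and 9930 in Zeb2 -165D123 and 8340 and 7970 in the parent, so both genotypes exceeded the parent. Without Nfil3-/- replicate 1, Nfil3-/- replicate 2 or Zeb2 -165D123 replicate 2, only 3, 2 and 2 of the 28 were called higher in Nfil3-/-.

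Of 27 cDC2 markers, 8 were called higher in Nfil3-/- and 3 higher in Zeb2 -165D123, against 5.22% and 5.7% of all genes, with a median log2 fold change of 0.19. Higher in Nfil3-/-, beside Ccr2 and Sirpb1c, were Cd4, the coreceptor carried by many splenic cDC2, at 412 and 422 against 274 and 265 CPM (0.63, adjusted p = 0.00441), Cd7, a membrane protein of lymphoid cells, at 38.6 and 30.4 against 12 and 12 CPM (1.52, adjusted p = 0.00188) and Cx3cr1, the fractalkine receptor, at 3.37 and 3.33 against 1.32 and 1.04 CPM (1.51, adjusted p = 0.00572). Clec4a1 (0.65) and Tbx21 (2.06) were the others. The parent had 49.4 and 48.4 CPM of Cd7 and 10.1 and 7.45 of Cx3cr1, above all 4 libraries. The call of Cx3cr1 was lost without Zeb2 -165D123 replicate 2 (adjusted p = 0.0604). Mgl2, a lectin of cDC2 in other tissues, had no count in either Zeb2 -165D123 library and 0.45 and 0.866 CPM in Nfil3-/-, at least 8.65-fold higher against a floor of 3 counts over the group. It was not called without Nfil3-/- replicate 2 (adjusted p = 0.078), Zeb2 -165D123 replicate 1 (0.052) or Zeb2 -165D123 replicate 2 (0.0747). Higher in Zeb2 -165D123 were Ltb (lymphotoxin beta; -1.35), Relb (-1.08) and Csf1r, a receptor for macrophage growth factors (-0.68). Sirpa (-0.20) and Itgam (CD11b; -0.54, adjusted p = 0.0879) did not pass, and Itgam passed without the filter (0.0487) and with only the 2 groups in the fit (0.0204). Without Nfil3-/- replicate 2, Zeb2 -165D123 replicate 1 or Zeb2 -165D123 replicate 2, 5 of the 27 were called higher in Nfil3-/- each time, and without Nfil3-/- replicate 1 only 1 was called higher in Zeb2 -165D123, against 2 without replicate 2 of either genotype. DESeq2, the fit without the filter and the fit with only the 2 groups each called 5 higher in Zeb2 -165D123.

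The side that each gene takes in wild-type cells was read from separate libraries of the first experiment, in which WT cDC1 and WT cDC2 shared no library with this comparison. Of 744 genes higher in Nfil3-/- that were also tested there, 39.5% were higher in WT cDC1 and 21.9% in WT cDC2. Of 820 genes higher in Zeb2 -165D123, 23.9% were higher in WT cDC1 and 40.6% in WT cDC2. Among all genes tested in both experiments, the shares were 22.7% and 23.0%. A side in wild-type cells does not name a cell type. C1qc and Axl, macrophage markers described below, were also higher in WT cDC2 (log2 of WT cDC1 over WT cDC2 -3.80 and -3.84). Among genes that differed at least 2-fold, WT cDC2 genes outnumbered WT cDC1 genes on both sides: 32.1% against 12.1% for those higher in Nfil3-/-, and 37.8% against 25.2% for those higher in Zeb2 -165D123.

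Genes of splenic macrophages and of the uptake of dead cells stood higher in Zeb2 -165D123. Of 17 monocyte and macrophage markers, 7 were called higher there and 2 in Nfil3-/-, against 5.7% and 5.22% of all genes, with a median log2 fold change of -1.18. C1qc, a chain of complement C1q, was at 5.34 and 7.84 CPM in Nfil3-/-, 38.2 and 42.8 in Zeb2 -165D123 and 7.28 and 4.57 in the parent (-2.61, adjusted p = 4.4e-06). Its neighbour C1qa, another chain, was at 7.70 and 13.6 against 39.7 and 42.5 CPM (-1.94, adjusted p = 0.000772). Vcam1, an adhesion molecule of red pulp macrophages, was at 23.1 and 46.4 against 172 and 192 CPM (-2.38, adjusted p = 0.00252), a call lost with only the 2 groups in the fit (0.0629). For all 3, the parent lay nearer to Nfil3-/- than to Zeb2 -165D123. Cd163, a scavenger receptor for haemoglobin, had 0.169 and 1.05 against 8.79 and 10.3 CPM (-3.90, adjusted p = 0.00146). The receptors Axl and Mertk, which bind dead cells through bridging proteins, differed by -1.84 and -2.45.

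Other markers of this list did not follow. Lyz2 (lysozyme; 0.73) and Fcgr4 (CD16-2; 0.58) were called higher in Nfil3-/-, 1 of them without Zeb2 -165D123 replicate 1 or replicate 2, and Adgre1 (F4/80; 0.20), Cd68 (0.23) and Cd14 (0.78) did not pass. The summed level of the 17 was 1510 and 1660 CPM in Nfil3-/-, 1810 and 1860 in Zeb2 -165D123 and 1810 and 1770 in the parent. Spic, the factor of red pulp macrophages, was at a mean of 23.6 against 61.5 CPM and did not pass (-1.39). The part of macrophages among the sorted cells in these values was not tested. Of 19 genes of dead cell uptake, 8 were called higher in Zeb2 -165D123 (against 5.7% of all genes), 5 of them also in the macrophage list. Timd4, a phosphatidylserine receptor (-1.13), Stab2, a scavenger receptor (-1.94), and Itgb5, an integrin chain (-1.64), were the rest. Tgm2, a transglutaminase, was called in the other direction, with means of 216 and 108 CPM (1.00). Without Nfil3-/- replicate 1, 5 of the 19 were called higher in Zeb2 -165D123, and the call of Itgb5 was lost when any library was left out.

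Granule genes of neutrophils stood higher in Nfil3-/-. Of 9 neutrophil markers, 5 were called higher there (against 5.22% of all genes) and none higher in Zeb2 -165D123, and their summed level was 63.8 and 115 CPM in Nfil3-/-, 27.1 and 13.6 in Zeb2 -165D123 and 17.4 and 20.3 in the parent. Ltf (lactoferrin) was at 8.71 and 19.3 CPM against 0.402 and 0.136 (5.75, adjusted p = 0.000898). Ngp, another granule protein, was at 16.2 and 35 CPM, with 1 count over the Zeb2 -165D123 libraries. Camp, an antimicrobial peptide, was at 2.14 and 3.92 CPM with no count in Zeb2 -165D123, at least 39.8-fold higher against a floor of 3 counts over the group, and Elane (neutrophil elastase) was at least 13.2-fold higher on the same terms. Mpo (myeloperoxidase) was at 1.57 and 2.37 CPM against 0.0575 and 0.181 (3.92, adjusted p = 0.0087). Nfil3-/- replicate 2 had the higher value for all 5 genes. Csf3r (0.28), S100a9 (1.44) and S100a8 (2.17), which mature neutrophils hold, did not pass in the main fit. Their values also lie toward Nfil3-/-, and without the filter on low counts 7 of the 9 markers were called higher there. The members called changed with the fit. The call of Ngp was lost without Nfil3-/- replicate 2 (adjusted p = 0.0729) or either Zeb2 -165D123 library (0.0801 without replicate 1, 0.107 without replicate 2), that of Mpo without Nfil3-/- replicate 2 (0.0734) or Zeb2 -165D123 replicate 1 (0.0779), and that of Elane whichever library was left out. The list kept 2 calls without Nfil3-/- replicate 2 and 3 without Zeb2 -165D123 replicate 2. The same 9 genes gave 3 calls in Nfil3-/- over H/H cDC1, all higher (Ltf, Camp and S100a9). The part of neutrophil RNA among the sorted cells in the results was not tested, and whether the hybrid cells and cDC1 came from the same mice is not stated.

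Lists of markers for other cells were short. Their calls stand against 5.22% of all genes higher in Nfil3-/- and 5.7% higher in Zeb2 -165D123. T cell markers had a median log2 fold change of -1.43, and 0 of 10 had the higher mean in Nfil3-/-. Of the 10, 2 were called higher in Zeb2 -165D123 (Trac and Lck), with summed levels of the list of 11 and 10.1 against 20.9 and 19.5 CPM. Both were lost whichever library was left out, and DESeq2 called 0. NK cell markers had 1 of 4 (Il2rb, at means of 0.079 and 0.945 CPM, lost without replicate 2 of either genotype), B cell markers 1 in each direction of 7 (Ighm at 0.59, lost without Nfil3-/- replicate 1 or either Zeb2 -165D123 library, and Ms4a1 at -0.70, lost without Nfil3-/- replicate 2). Of 11 pDC markers, Mzb1 was called higher in Nfil3-/- and Cd300c and Ccr9 higher in Zeb2 -165D123. The call of Mzb1 was lost without Nfil3-/- replicate 1 (0.0806) or Zeb2 -165D123 replicate 2 (0.0625), and that of Ccr9 without replicate 2 of either genotype (0.124 and 0.117). Siglech, which defines pDC, had means of 0.567 and 0.29 CPM and did not pass.

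Cell cycle genes stood higher in Nfil3-/-. Of 21 tested, 20 were called higher there and none in the other direction, against 5.22% of all genes, and the median log2 fold change was 1.09 against -0.033 for all genes. Plk1, a mitotic kinase, was at 34.1 and 33.9 CPM in Nfil3-/-, 11 and 12.5 in Zeb2 -165D123 and 21.7 and 19.5 in the parent (1.53, adjusted p = 4.9e-05). Ccnb1 (cyclin B1) was at 50.3 and 52.1 against 19.6 and 16.4 CPM, with 43.8 and 26.1 in the parent (1.51, adjusted p = 0.002). Aurkb, a kinase of chromosome segregation, was at 51.6 and 54.2 against 20.5 and 21.2 CPM (1.34, adjusted p = 8.11e-05). Log2 fold changes were 1.38, 1.26 and 1.24 for the mitotic genes Ccnb2, Ube2c and Bub1, and 0.54, 0.61 and 0.76 for the replication genes Mcm6, Mcm2 and Tyms, while Pcna (0.36) did not pass. The summed level was 1390 and 1480 CPM in Nfil3-/-, 749 and 751 in Zeb2 -165D123 and 1320 and 1130 in the parent, so that Zeb2 -165D123 stood apart from the other groups. Against the parent, 16 of the 21 were lower in Zeb2 -165D123 and 2 higher in Nfil3-/-, values that share the H/H libraries. Without 1 library at a time, 15 to 18 of the 21 were called.

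Maturation genes, which dendritic cells induce on activation, stood higher in Zeb2 -165D123. Of 16 tested, 8 were called higher there (against 5.7% of all genes) and none in Nfil3-/-, with a median log2 fold change of -0.62. Ccr7, the receptor that guides mature dendritic cells to lymph vessels, was at 361 and 327 CPM in Nfil3-/-, 739 and 657 in Zeb2 -165D123 and 648 and 530 in the parent (-1.02, adjusted p = 0.0174). Fscn1 (fascin), which bundles actin in mature cells, was at 35.9 and 40.5 against 91.1 and 64.5 CPM (-1.02, adjusted p = 0.0174). For Fscn1 the parent, at 33.6 and 46.0 CPM, overlapped with Nfil3-/- and lay below Zeb2 -165D123. Socs2, a feedback inhibitor of cytokine signalling, was at 7.53 and 7.25 against 18.4 and 17.65 CPM (-1.28, adjusted p = 0.00441). Relb, Cd83, Cd80, Cd200 and Tnfrsf9 were also called, and Cd86 (-0.18), Cd40 (-0.21) and Cd274 (PD-L1; -0.19) were not. These calls rested on all libraries: 4 of the 16 passed without Nfil3-/- replicate 1, 1 without Nfil3-/- replicate 2, 2 without Zeb2 -165D123 replicate 1 and 5 without Zeb2 -165D123 replicate 2, and Ccr7 in none of these.

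Immediate early and heat shock genes can also be induced during tissue dissociation. Of 18, 6 were called higher in Zeb2 -165D123 (against 5.7% of all genes) and none in Nfil3-/-, with a median of -0.49. Jun was at 197 and 196 CPM against 447 and 518 (-1.30, adjusted p = 4.58e-05), and Junb at 112 and 96.3 against 252 and 233 (-1.22, adjusted p = 0.000136). The parent stood between, at 266 and 363 CPM for Jun and 118 and 167 for Junb. Ier2 (-0.90), Egr1 (-1.03), Jund (-0.82) and Dusp1 (-0.54) made up the rest, and Fos (0.20), Fosb (-0.29) and Atf3 (-0.17) did not pass. The call of Jund was lost without Nfil3-/- replicate 1 (0.0776), Nfil3-/- replicate 2 (0.0842) or Zeb2 -165D123 replicate 1 (0.111), that of Dusp1 without Nfil3-/- replicate 1 (0.0754), Nfil3-/- replicate 2 (0.0897) or Zeb2 -165D123 replicate 2 (0.0659), and that of Egr1 without Nfil3-/- replicate 2 (0.0612). Without Nfil3-/- replicate 2, 3 of the 18 were called. The part of cell handling in these values was not tested.

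Of 17 chemokines and cytokines, 4 were called higher in Zeb2 -165D123 and 1 in Nfil3-/-, against 5.7% and 5.22% of all genes. Ccl22, a chemokine that draws regulatory T cells, was at 17.0 and 12.6 against 39.7 and 41.7 CPM (-1.46, adjusted p = 0.00252), and Cxcl16, a ligand of T cells, at 192 and 203 against 386 and 364 (-0.93, adjusted p = 0.000334). The parent lay between the genotypes for both. Ccl5 (-0.74) and Il18 (-0.54) were called in the same direction and Il10 in the other (1.24); leaving out Nfil3-/- replicate 1, among others, lost each of these 3. From 2 to 3 of the 17 were called higher in Zeb2 -165D123 when a library was left out. Il12b, a subunit of interleukin 12, had means of 112 and 203 CPM and did not pass (-0.87).

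Antigen presentation through MHC class I differed by small amounts. Of 17 genes, 3 were called higher in Nfil3-/- (against 5.22% of all genes) and none in Zeb2 -165D123, with a median of 0.29. Psmb10, a subunit of the immunoproteasome, was at 222 and 220 CPM against 143 and 135 (0.67, adjusted p = 0.00182), and Pdia3, a chaperone of peptide loading, at 1078 and 1188 against 797 and 706 (0.59, adjusted p = 0.00329). For both the parent was near Zeb2 -165D123, at 156 and 148 CPM for Psmb10 and 741 and 797 for Pdia3. Psmb9 (0.43) completed the 3 and was lost when any library was left out. DESeq2 called 9 of the 17, and edgeR 6 without the filter on low counts or with only the 2 groups in the fit. The class I heavy chains H2-K1 (-0.01) and H2-D1 (-0.06) did not pass. Of 14 class II genes 1 was called, higher in Nfil3-/-, against 5.22% of all genes. This was Ctss, a protease that trims the invariant chain (0.49), lost without either Nfil3-/- library or Zeb2 -165D123 replicate 2.

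Of 25 interferon-stimulated genes, 2 were called higher in Nfil3-/- and none in Zeb2 -165D123, a share near the 5.22% of all genes. Zbp1, a sensor of unusual nucleic acids and the call described here, was at 84.6 and 88.9 CPM against 41.3 and 50.4 (0.92, adjusted p = 0.000283), with 41.5 and 37.7 in the parent. The summed level of the list was 2590 and 2790 CPM in Nfil3-/-, 1560 and 2520 in Zeb2 -165D123 and 1710 and 1620 in the parent, so Zeb2 -165D123 replicate 2 lay near Nfil3-/- and replicate 1 near the parent. Without Zeb2 -165D123 replicate 2, 8 of the 25 were called higher in Nfil3-/-, and without Zeb2 -165D123 replicate 1, 2 were called in each direction. Without the filter on low counts 7 were called and with the term for Xist 4.

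Of 17 chemokine and migration receptors, 5 were called higher in Nfil3-/- (Ccr2 and Xcr1 among them) and 4 higher in Zeb2 -165D123 (S1pr3, Ccr9, Ccr7 and Gpr183), against 5.22% and 5.7% of all genes. Cxcr3, a receptor for chemokines induced by interferon gamma, was at 53.4 and 46.7 CPM against 27.2 and 25.5 (0.92, adjusted p = 0.00368), and all 4 libraries lay above the 15.3 and 12.2 of the parent. The 4 calls toward Zeb2 -165D123 fell to 1 without Nfil3-/- replicate 1, 0 without Nfil3-/- replicate 2, 2 without Zeb2 -165D123 replicate 1 and 1 without Zeb2 -165D123 replicate 2, and 3 were called toward Nfil3-/- without Zeb2 -165D123 replicate 2. Ccr3, which stands in no list, lies near Ccr2 on chromosome 9 and differed the other way (-3.44).

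Of 14 SIRP and Clec4 genes, 5 were called higher in Nfil3-/- (against 5.22% of all genes): Sirpb1a, Sirpb1b, Sirpb1c, Clec4b1 and Clec4a1. Clec4b1 was at 5.96 and 9.89 CPM against 2.70 and 2.63 (1.58, adjusted p = 0.00592). Clec4b2, its neighbour in the lectin cluster, went the other way, at 18.9 and 22.9 against 46.5 and 48.8 CPM (-1.19, adjusted p = 0.000127), as did Clec4n (Dectin-2), a fungal sensor, at 9.78 and 13.6 against 29.9 and 29.1 (-1.33, adjusted p = 0.00224). In the parent, Clec4b1 (9.34 and 10.7 CPM) overlapped with Nfil3-/-, Clec4b2 (37.0 and 34.2) between the groups and Clec4n (13.2 and 9.53) at the level of Nfil3-/-. Without Nfil3-/- replicate 2 the call of Clec4b1 was lost (adjusted p = 0.0956) and 3 of the 14 were called higher in Nfil3-/-.

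Integrin chains gave 2 calls toward Nfil3-/- (Itgae and Itgb2) and 3 toward Zeb2 -165D123 among 14, against 5.22% and 5.7% of all genes. With only the 2 groups in the fit there were 1 and 6. Toward Nfil3-/- 1 remained without Nfil3-/- replicate 1 and 0 without replicate 2 of either genotype. Itgad, an alpha chain of splenic macrophages, was at 2.53 and 5.38 against 24.6 and 24.5 CPM (-2.62, adjusted p = 6.1e-05), with 5.27 and 3.95 in the parent. Itga1, a collagen receptor chain, was at 1.91 and 1.96 against 5.17 and 4.40 CPM (-1.30, adjusted p = 0.00238). Pattern recognition receptors had 2 calls toward Nfil3-/- (Tlr7 and Nlrc4) and 1 toward Zeb2 -165D123 (Clec4n) among 24, a share near the 10.9% of all genes called. Toward Nfil3-/- 4 were called in DESeq2 and with only the 2 groups in the fit, and 5 without the filter. Tlr7, the sensor of single-stranded RNA, was at 22.6 and 24.2 against 9.66 and 10.8 CPM (1.19, adjusted p = 0.00329), with 28.4 and 21.2 in the parent. Of 14 Notch genes 2 were called higher in Zeb2 -165D123 (Notch4 at -1.35 and the target Hes1 at -1.09), against 5.7% of all genes. Of 6 NADPH oxidase genes 1 was called higher in Nfil3-/-, against 5.22% of all genes (Cybb at 0.46, lost whichever library was left out).

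**Figure D4:**
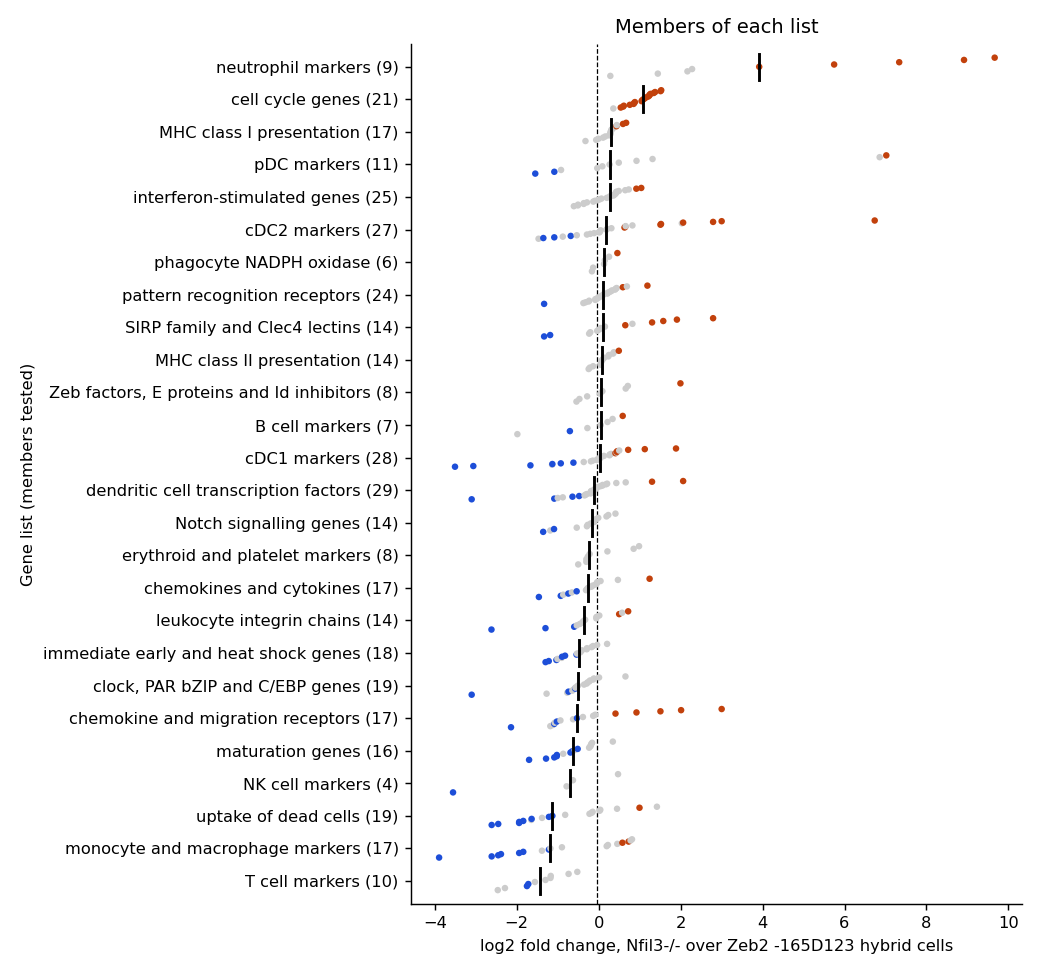
Log2 fold change of Nfil3-/- over Zeb2 -165D123 hybrid cells (horizontal axis) for each tested member of the gene lists. Coloured points passed the threshold, black bars are list medians, and the dashed line is the median of all genes tested (-0.033). Of 21 cell cycle genes, 20 lie to the right as called, and all 8 called maturation genes lie to the left.

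Clock, PAR bZIP and C/EBP genes, and promoters with D-boxes, were examined because NFIL3 binds D-boxes. The list of genes was written from general knowledge and not chosen by a D-box in the promoter. Of 19 clock, PAR bZIP and C/EBP genes, 3 were called (against 10.9% of all genes), all higher in Zeb2 -165D123: Nfil3 itself, Per1 (-0.57) and Per3 (-0.74), both repressors in the circadian clock. Dbp (-0.64) and Tef (-0.57), which bind the sites NFIL3 binds, did not pass. Per3 was at 4.10 and 4.42 CPM against 6.50 and 7.71 (adjusted p = 0.0401), with 3.20 and 3.38 in the parent. Per3 and Per1 lost their calls when any library was left out, and Per3 also in DESeq2 (adjusted p = 0.0841). The D-box letters TTACGTAA and TTATGTAA, on either strand, occurred in the RefSeq promoter (300 bases, 250 before the start) of 88 of 9937 tested genes that have one (0.886%). They occurred in 3 of 584 genes higher in Nfil3-/- (0.514%) and in 9 of 589 higher in Zeb2 -165D123 (1.53%). The E-box letters CAGGTG, on either strand, occurred in 20.3%, 16.6% and 25.5% of the same sets. These shares count a gene if any of its promoters matched. Counted per promoter instead, a D-box occurred in 1.06% and an E-box in 20.2% of all promoters listed by RefSeq.

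Among named genes, the promoters of Per3 and of Nlrc4, an inflammasome sensor of bacterial proteins, held a D-box. Their 250 bases before the start are shown because they place the letters NFIL3 is known to bind beside genes that differ in opposite directions. They come from RefSeq on GRCm38.p6, are written 5′ to 3′ along the gene's minus strand, and have the D-box in capitals.
Per3 (chr4:151044666-151044915): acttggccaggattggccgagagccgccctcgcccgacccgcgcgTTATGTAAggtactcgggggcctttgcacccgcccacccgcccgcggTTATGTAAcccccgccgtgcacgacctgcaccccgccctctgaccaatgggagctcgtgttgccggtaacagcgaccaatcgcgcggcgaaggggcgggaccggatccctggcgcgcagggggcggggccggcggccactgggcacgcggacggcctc
Nlrc4 (chr17:74459109-74459358): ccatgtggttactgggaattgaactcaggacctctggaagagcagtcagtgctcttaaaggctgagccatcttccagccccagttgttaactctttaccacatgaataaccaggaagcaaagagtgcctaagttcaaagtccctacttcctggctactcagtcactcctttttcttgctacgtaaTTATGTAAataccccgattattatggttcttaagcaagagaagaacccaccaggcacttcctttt
The Per3 promoter holds 2 D-boxes, which begin 205 and 158 bases before the start, and that of Nlrc4 holds 1, which begins 65 bases before it. Neither holds the E-box letters in the 300 bases. Nlrc4 was at 19.2 and 19.1 CPM in Nfil3-/- and at 12.4 and 13 in Zeb2 -165D123 (0.59, adjusted p = 0.0252), with 20.5 and 17.4 in the parent, and its call was lost when any library was left out. A match describes the letters only and says nothing of binding.

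Nfil3 loss was also measured in cDC1, in libraries that are not part of the comparison. Whether those cells and the Nfil3-/- hybrid cells came from the same mice is not stated, and effects shared by animal were not tested. Between Nfil3-/- and H/H cDC1, 440 genes (3.03%) passed the threshold. Nfil3-/- cDC1 replicate 2 held Xist (169 CPM) and neither H/H cDC1 library did, and with the term for Xist 312 genes passed. Of the 757 genes higher in Nfil3-/- hybrid cells, 88.2% had a higher value in Nfil3-/- than in H/H cDC1 and 114 (15.1%) were called so, against 3 called lower. Of the 827 genes higher in Zeb2 -165D123, 14.9% had a higher value in Nfil3-/- cDC1, 150 (18.1%) were called lower there and 3 higher. Among all genes tested, 48.0% had a higher value in Nfil3-/- cDC1. Without chromosome 13, which carries Nfil3, the shares were 88.5% and 15.1%.

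Single genes differed in this respect. Clec4b2 had a mean of 38.8 CPM in H/H and 11.7 in Nfil3-/- cDC1 (-1.73, adjusted p = 8.7e-06) and Itgae 72.5 and 299 (2.04, adjusted p = 0.000106). For these the direct comparison and Nfil3 loss in cDC1 had the same sign. Spon1 and Kdr were also higher in Nfil3-/- cDC1 (2.24 and 2.07). Ccr2, by contrast, had means of 38.7 and 45.7 CPM in H/H and Nfil3-/- cDC1 and did not pass (0.24), and C1qc was at 0.288 and 0.502 CPM there (0.79, not called).

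**Figure D5:**
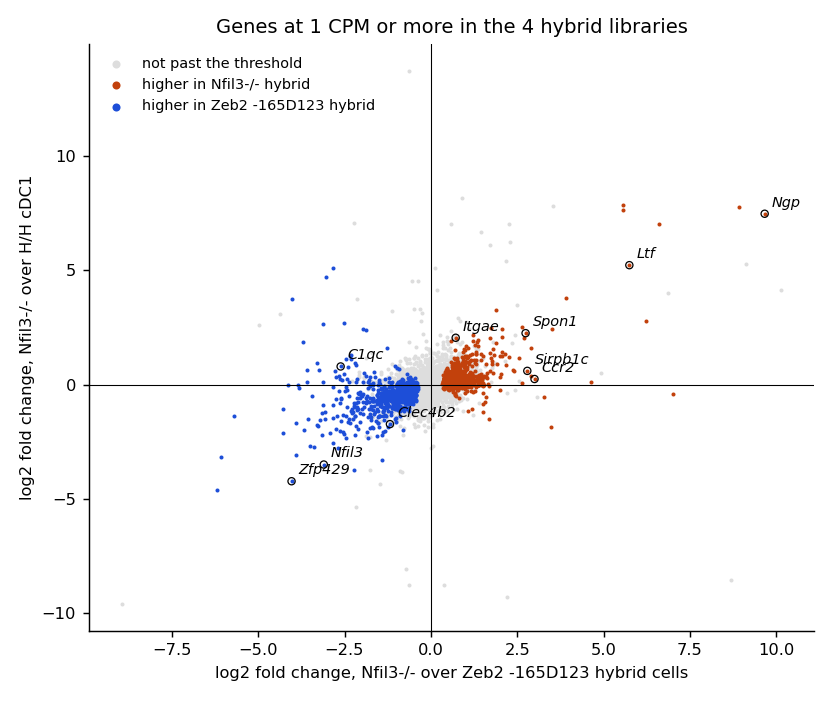
Log2 fold change of Nfil3-/- over Zeb2 -165D123 hybrid cells (horizontal axis) against that of Nfil3-/- over H/H cDC1 (vertical axis), which share no library, for genes with a mean of 1 CPM or more over the 4 hybrid libraries. Colours mark the genes called in the comparison of hybrid cells. Of all called genes higher in Nfil3-/- hybrid cells, 88.2% had a cDC1 value above 0, and of those higher in Zeb2 -165D123, 14.9%. These shares include called genes below 1 CPM, which are not drawn.

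Genes beside Nfil3 on chromosome 13 were looked at because an introduced allele carries flanking sequence with it. Within 10 Mb of Nfil3, 21 of 124 tested genes were called (16.9%), against 10.9% of all genes. From 10 to 20 Mb it was 16 of 110 (14.5%), and within 10 Mb of Zeb2 5 of 64 (7.81%). Of the 21 within 10 Mb of Nfil3, 6 were higher in Nfil3-/- and 15 higher in Zeb2 -165D123. Dapk1 and Hk3, described below, belong to the smaller side. Zfp429, a zinc finger gene at chr13:67387905-67399819, between 10 and 20 Mb away, was at 0.337 and 0.593 CPM in Nfil3-/- and at 8.11 and 7.67 in Zeb2 -165D123 (-4.03). It was also low in Nfil3-/- cDC1, at a mean of 0.448 against 8.48 CPM in H/H cDC1. Dapk1, a kinase of cell death, was at 16 and 16.6 against 5.0 and 4.95 CPM (1.71), and Hk3, a hexokinase of myeloid cells at chr13:55005985-55021385, at 228 and 235 against 113 and 119 CPM (1.00). Both were also higher in Nfil3-/- cDC1, with means of 21.2 against 8.22 CPM for Dapk1 and 237 against 102.5 for Hk3. These 3 genes were picked for their position after their values were seen, and the strain of origin of the flanking sequence was not tested.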

How the data were processed

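Bulk RNA from sorted splenic dendritic cells was sequenced from SMARTer Ultra Low libraries, per the labels' protocols. The authors deposited expected counts per Ensembl gene, 1 table per experiment, made with bcl2fastq, DRAGEN and edgeR, per the submitters' processing notes; versions, genome build and annotation are not given in the sources used here. Non-whole values (10.8% and 10.2% of the 2 tables) were rounded to whole counts. Of 55774 lines 287 repeated a gene ID, and of the 55487 genes kept 99.5% occur in GENCODE M21 (GRCm38), which gave coordinates.

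All 12 libraries of experiment 2 (17.5 to 22.7 M counts) entered 1 fit (R 4.3.3, edgeR 4.0.16) with a coefficient for each group and 6 residual degrees of freedom, filterByExpr, TMM factors (0.962 to 1.032), robust quasi-likelihood F tests and Benjamini-Hochberg adjustment over all genes tested, called at 0.05. Biological coefficients of variation had a median of 0.138. The standard error is the log2 fold change divided by the square root of F. P-values measure the spread between libraries, since the labels call them biological duplicates without naming animals. Depth leaves a floor of 3 counts over a group, 0.0755 and 0.0761 CPM; intervals cover counting and fitted spread only. In data simulated on these libraries, changes were placed only in genes at a mean above 1 CPM. Of these, 72% of 2-fold and 94% of 4-fold changes (100 genes each among 14136 in that fit) were called in this comparison, as were 11 unchanged genes.

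Named genes are 12 fixed genes, the 15 largest differences per direction (past the threshold, at least 2-fold, at least 10 CPM in the higher group, no overlap of libraries, no predicted genes), and up to 6 members of each list with 3 or more calls. Other list members, and genes near Nfil3, were named after their values were seen. Some genes that the rule gives are not reported here. The members, lists and rules were chosen with earlier results of these data known. Alternatives were RLE factors, DESeq2 1.42.0, no filter, only the compared groups, a replicate block, leaving out each library and, added after seeing the data, a term for libraries that hold Xist. The protocol names no strand, so antisense and overlapping genes cannot be told apart.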

Additional observations from a re-analysis of the deposited data

How the results depend on the processing

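The 1584 calls were 1647 with RLE factors, 1684 in DESeq2, 1917 without the filter, 1949 with only the compared groups, 1407 with the replicate block (of which 1372 were among the 1584) and 1518 with the term for Xist. Leaving out 1 library at a time gave 596 to 963 calls, 325 to 484 higher in Nfil3-/- and 270 to 479 higher in Zeb2 -165D123. RLE factors and DESeq2 moved the split from 757 and 827 to 863 and 784, and to 943 and 741.

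Nfil3-/- against H/H hybrid cells (541) gave 863 calls in DESeq2, 1052 without the filter, 1953 with only the compared groups and 128 to 223 without 1 library. Zeb2 -165D123 against H/H (584) gave 900 without the filter and 128 to 261 without 1 library. Nfil3-/- against H/H cDC1 (440) gave 772 without the filter and 167 to 522 without 1 library. WT cDC1 against WT cDC2 (7050) gave 5465 to 5636. The cause of these shifts was not tested. Fits without a library also hold fewer samples.

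Of the 97 named genes past the threshold, 57 passed under every alternative, 37 failed in at least 1 fit without a library, and none changed sign. Among genes that did not pass, Batf3 (-0.05) became 0.01 without the filter and ran from -0.06 to 0.01 when a library was left out (0 without Nfil3-/- replicate 1, 0.01 without Zeb2 -165D123 replicate 1), and Id2 (0.04) ran from -0.01 (without Zeb2 -165D123 replicate 2) to 0.16. Same-numbered libraries of the 2 genotypes deviated together weakly (r = 0.126 across 14504 genes, 0.041 without sex-linked genes), and the labels do not say what the numbers share, so the replicate block is an alternative only. In the simulated data 2-fold changes were missed more often than 4-fold changes, and smaller changes were not simulated.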
